A study of Rattus norvegicus with 18 samples.

Results

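CpG-poor stretches of the rat genome that stood at 90% methylation or more in control testis were described in 12 libraries made by reduced representation bisulfite sequencing, or RRBS. This assay digests genomic DNA with the enzyme MspI and treats it with bisulfite, so that a methylated cytosine is still read as C and an unmethylated one as T. The genome was divided into 1000-bp tiles, and a tile counted as CpG-poor when fewer than 20 of its CpGs were listed in any library. A tile also needed 3 or more CpGs with at least 10 reads, both strands summed, in all 12 libraries. The highly methylated tiles were those whose mean over the 6 control libraries was 90% or more, with the reads of these CpGs pooled per tile and library. Of 93364 tiles measured on chromosomes 1 to 20, 76035 were CpG-poor, and 42099 of these (55.4%) met the threshold. They hold 206805 of the 643813 CpGs with enough reads.

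The libraries came from testes of Wistar rats aged 8 weeks, 6 from a chronic sleep restriction (CSR) group and 6 from a control group. The labels name neither the method of sleep restriction nor any pooling of animals, nor do they tie libraries to separate animals, so every p-value is relative to the spread among these libraries, whatever its source. The submitters' code for the control methylation libraries uses the letter found in their code for CSR RNA libraries. Groups here follow the labels, on which the direction of each difference depends.

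Methylation of CpGs is copied after each cell division by the maintenance enzyme DNMT1, which the protein UHRF1 brings to the newly made strand. In mammals most CpGs outside CpG islands are methylated, and CpG islands, which often hold promoters, are mostly free of it. Methylated cytosine mutates readily to thymine, and sequence that stays methylated in the germ line has lost many of its CpGs in evolution. Testis holds germ cells at many stages beside Sertoli, Leydig and peritubular cells. A level measured in whole testis is an average over all of them, in which the share of a cell type and its level per cell cannot be told apart. No gene annotation or sequence of the rn6 build was used here, so the tiles are given by coordinates without gene context, and the tissue label was not checked against markers in these libraries.

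The 12 libraries held 46257452 to 68940379 reads at CpG cytosines. At 968 genotype-like CpGs every library lay near 0, 50 or 100%. CSR libraries 2 and 3 matched at 98.0% of them, whereas the other 65 pairs matched at 37.3 to 51.2%. These CpGs were picked for differing between libraries, so mismatches among the other pairs follow partly from the choice. The labels do not say that CSR libraries 2 and 3 share an animal. Control libraries 3 and 5 stood apart in another way. Only 30.6% and 28.4% of their kept reads fell in the highly methylated tiles, against 32.7 to 34.5% in the other control libraries and 32.4 to 34.2% in the CSR libraries. Results are therefore also given without control libraries 3 and 5, or with CSR libraries 2 and 3 summed, where they moved.

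The CSR libraries took part in the choice of the tiles through their coverage but not through their methylation level, and in them the tiles were again highly methylated. The mean over tiles was 94.95% ± 0.0458 in CSR libraries (SD, n = 6), with a lowest library of 94.89%, a median of 94.97% and a highest of 95.01%. Of the 42099 tiles, 39895 (94.8%) had a CSR mean of 90% or more, and 24168 (57.4%) had 95% or more. A further 2003 tiles lay between 85 and 90%, 182 between 80 and 85%, and 19 under 80%. The lowest CSR mean was 69.5%. In all 6 CSR libraries at once, 26092 tiles (61.98%) were at 90% or more, and 48 were under it in every one. Between these, 9027 tiles (21.4%) reached it in 5 CSR libraries and 4004 (9.51%) in 4. All 12 libraries were at 90% or more in 19804 tiles (47.04%). Library by library, 8.05% ± 1.57 of the tiles stood at 100% in CSR and 6.00% ± 1.12 in control, and 0.924% ± 0.158 against 0.360% ± 0.0819 stood under 80% (SD, n = 6). The control libraries chose the tiles, so their lower share under 80% is a description. The median reads per tile averaged 176 in CSR and 190 in control libraries, and the part of depth in the share at 100% was not tested. The other 33936 CpG-poor tiles averaged 57.7% ± 0.690 in CSR libraries.

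**Figure D1:**
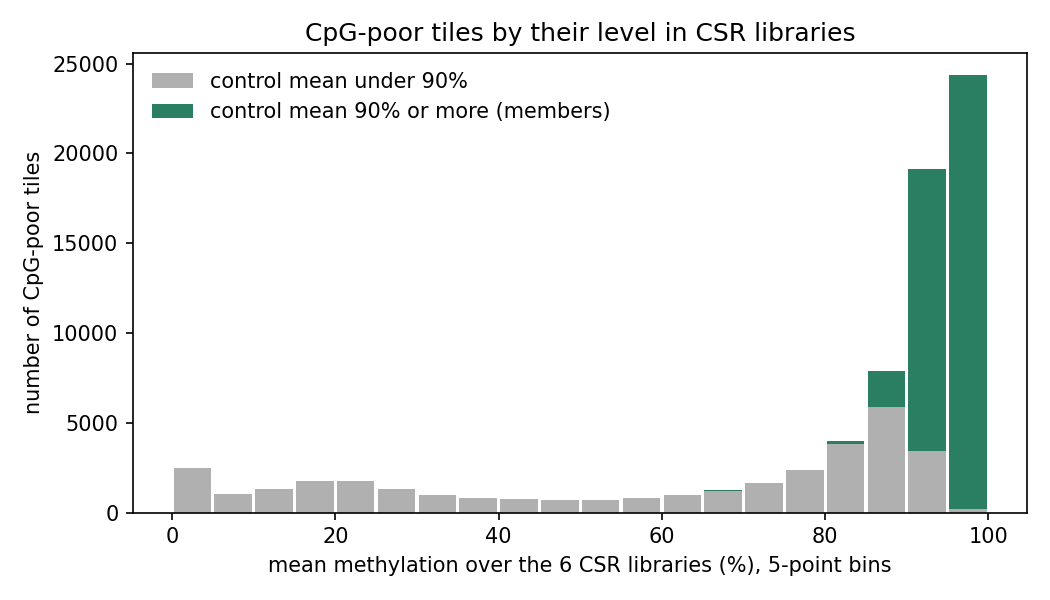
Number of CpG-poor tiles (y axis) by mean methylation over the 6 CSR libraries (x axis, 5-point bins), with tiles at 90% or more in control in green and the other CpG-poor tiles in grey. Of the green tiles, 39895 of 42099 also reach 90% in CSR libraries, and the grey tiles spread over the whole range.

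The tiles near the threshold show how little separates those inside from those outside. The highly methylated tile with the lowest control mean, on chromosome 5 from 59676001 to 59677000 (rn6), had 90.0001% ± 2.48 in control and 92.9% ± 2.62 in CSR (n = 6 each). The CpG-poor tile just outside, on chromosome 18 from 2185001 to 2186000, had 89.9998% ± 6.47 in control and 91.7% ± 4.40 in CSR. The other neighbours of the threshold had CSR means of 93.5% (chromosome 14 from 35178001) and 89.0% (chromosome 19 from 20955001) inside, and 88.2% (chromosome 13 from 79933001) and 91.1% (chromosome 3 from 120023001) outside. Both sets overlap in CSR libraries.

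The tiles held few measured CpGs each. The median was 4 CpGs with enough reads and 8 CpGs listed, and 13380 tiles (31.8%) had the minimum of 3. The median of the mean reads per library was 187 per tile, and 90% of tiles lay between 81.5 and 534. A read that covers several CpGs of a tile is counted at each of them. The tile with most measured CpGs, on chromosome 7 from 26605001 to 26606000, had all of its 19 listed CpGs measured. Its CSR libraries read 94.6% at the lowest, 95.9% at the median and 96.7% at the highest, and its control libraries 94.9, 96.0 and 96.6%, at 407 to 1348 reads. The groups overlap along nearly their whole range. The tile with most reads, on chromosome 1 from 117146001 to 117147000, had 4813 to 11062 reads per library. There the CSR libraries read 91.5% at the lowest, 92.8% at the median and 93.5% at the highest, and the control libraries 91.9, 92.5 and 92.7%. At this depth the SD between CSR libraries was 0.730 points, against a binomial value of 0.290 that takes the calls at each CpG as independent. Next in reads, the tile on chromosome 16 from 21750001 to 21751000 averaged 96.5% ± 0.542 (CSR) and 96.02% ± 0.551 (control), and that on chromosome 14 from 46660001 to 46661000 held 95.4% ± 0.558 and 95.3% ± 0.873. Next in measured CpGs, with 18 each, the tile on chromosome 10 from 20845001 to 20846000 held 91.003% ± 1.36 and 90.8% ± 1.81, and that on chromosome 1 from 17563001 to 17564000 held 96.2% ± 1.16 and 95.1% ± 0.554. In each of these the groups overlapped.

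High methylation was more frequent where fewer CpGs were listed, a property that the rule bounds but does not order. CpGs are listed only where the assay read them, so a tile can hold more than its count. The density in the sequence itself was not measured. Of tiles with 3 to 4 listed CpGs, 62.6% ± 0.480 were at 90% or more in the CSR libraries (SD, n = 6). The share was 60.4% ± 0.356 at 5 to 9 CpGs, 53.6% ± 0.443 at 10 to 14 and 46.0% ± 0.358 at 15 to 19. The ranges of the 6 libraries do not overlap between these neighbouring classes. Tiles with too many listed CpGs for the rule continued the fall, with 24.2% ± 0.398 at 20 to 49 CpGs and 0.526% ± 0.0564 at 50 or more. The median CSR level of all tiles fell along the same classes, from 93.2 and 92.9% through 91.3 and 88.6% to 18.9 and 1.17%. Within the highly methylated tiles themselves the level hardly moved with density, from 95.05% ± 0.0345 at 3 to 4 CpGs to 94.85% ± 0.0635 at 15 to 19 in CSR libraries. Depth went along with the share too: the CpG-poor tiles with fewest reads (up to 132 per library) held 57.9% highly methylated tiles and those with most reads (291 or more) 53.0%. Its part in the relation to density was not tested.

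**Figure D2:**
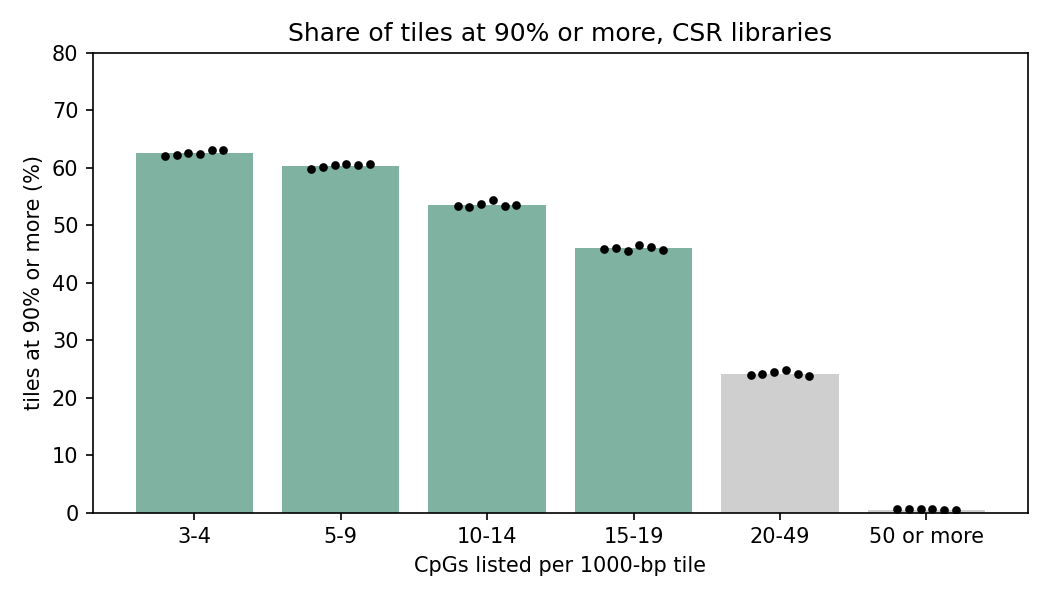
Percent of tiles at 90% or more (y axis) by the number of CpGs listed per 1000-bp tile (x axis). Bars are means over the 6 CSR libraries and points the single libraries; green classes are CpG-poor, and the share falls from 62.6% at 3 to 4 CpGs to 0.526% at 50 or more.

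Highly methylated tiles were found on every chromosome in similar shares. Of the CpG-poor tiles, 51.3% on chromosome 12 and 60.4% on chromosome 19 were among them, the lowest and highest of the 20 chromosomes. Their CSR mean lay between 94.9% on chromosome 18 and 95.1% on chromosome 20, where the rule leaves little room to differ. On a finer scale the shares differed more. Among 247 windows of 10 Mb with at least 100 CpG-poor tiles, the median share was 55.4%, and 90% of windows lay between 42.1 and 63.4%. The lowest was on chromosome 1 from 60000001 to 70000000, with 36 of 104 tiles (34.6%), and the highest on chromosome 13 from 110000001 to 120000000, with 81 of 119 (68.1%). In the CSR libraries, 38.5% and 70.6% of the same CpG-poor tiles had a mean of 90% or more. Both windows were picked as extremes by control level and the tiles are the same, so these values are a description only.

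Tiles next to a highly methylated tile were themselves more methylated than tiles next to another CpG-poor tile. At a distance of 1 kb, whatever their CpG density, they held 88.0% ± 0.169 in CSR libraries (SD, n = 6; 8980 pairs), against 51.5% ± 0.653 beside CpG-poor tiles under 90% (9331 pairs). The libraries ranged from 87.8 to 88.1% in the first case and from 50.8 to 52.4% in the second. The gap narrowed to 77.7% against 60.2% at 2 kb, 73.5% against 66.5% at 5 kb and 72.3% against 67.3% at 10 kb. At 100 kb the values were 69.7% ± 0.373 and 68.8% ± 0.322, within about 1 point of each other. Among neighbours at 1 kb that were CpG-poor as well, the levels were 89.2% and 63.7%. CpG density was not matched between these sets of neighbours, and its part in the gap was not tested. Of the neighbours at 1 kb, 73.8% had a CSR mean of 90% or more beside highly methylated tiles and 26.6% beside the others, and 1.76% against 23.5% were under 10%. A restriction fragment can cross the border of 2 tiles, and the part of shared reads in the gap at 1 kb was not tested.

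**Figure D3:**
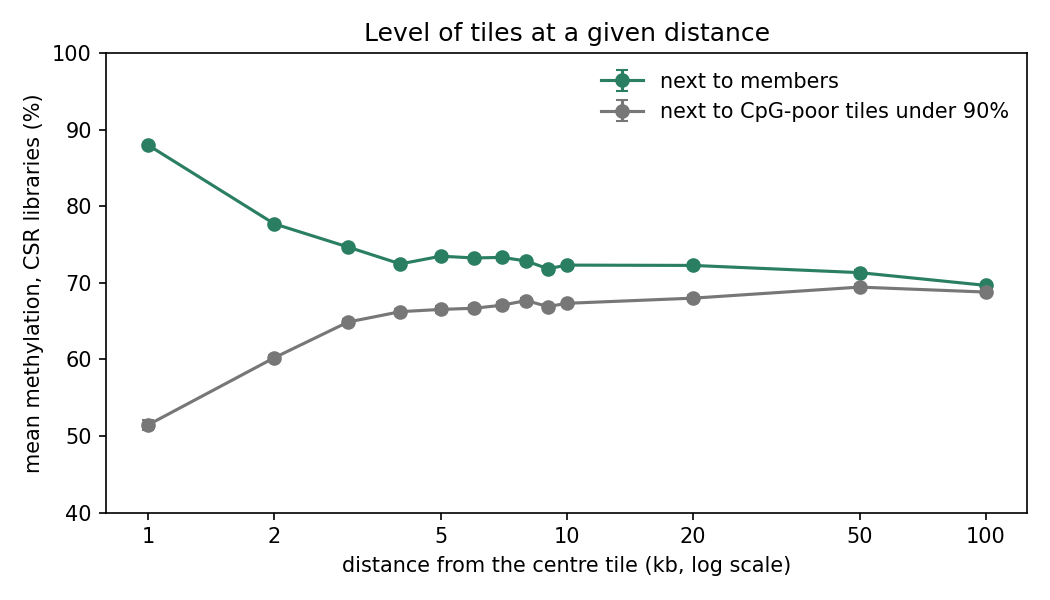
Mean methylation of tiles in CSR libraries (y axis, %) by distance from the centre tile (x axis, kb, log scale), around highly methylated tiles (green) and around the other CpG-poor tiles (grey); bars are SDs over 6 libraries, mostly smaller than the points. The curves start at 88.0 and 51.5% and come within about 1 point of each other at 100 kb.

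Tiles with many listed CpGs were rarely close by. Only 231 highly methylated tiles (0.549%) lay within 2 kb of a tile with 50 or more listed CpGs, a density found in CpG islands, against 1408 (4.15%) of the other CpG-poor tiles. Of the CpG-poor tiles under 10% in control, 720 of 3406 (21.1%) lay that close. Farther out the difference was gone from the median distance, which was 130 kb for the highly methylated tiles and 138 kb for the other CpG-poor tiles.

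Most highly methylated tiles stood alone. RRBS reads only the neighbourhood of MspI sites, and many neighbouring tiles were not measured. Of the 42099 tiles, 36570 had no highly methylated neighbour, 4992 came in pairs, and 2 runs of 5 were the longest. The first run lies on chromosome 14 from 33643001 to 33648000, with 27 measured CpGs and 5 to 14 listed CpGs per tile. Its CSR libraries averaged 95.7% ± 1.42, and its tiles lay between 91.7 and 97.7%. The second, also on chromosome 14, from 85435001 to 85440000, averaged 95.6% ± 1.48, with tiles between 91.9 and 98.8%. On chromosome 18 from 70684001 to 70688000, a run of 4 averaged 94.96% ± 2.31, and its tile from 70686001 stood lowest at 89.0% ± 6.62. Each run thus held tiles several points apart.

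Single CpGs inside the tiles lay under 90% more often than the tiles did, in 21847 cases (10.6%) against 2204 tiles (5.24%). A tile level averages its CpGs and the tiles were chosen by that average, so nothing is read from this contrast. In CSR libraries, 127797 of the 206805 CpGs (61.8%) had a mean of 95% or more, 57161 (27.6%) lay between 90 and 95%, 20752 (10.03%) between 75 and 90%, 895 (0.433%) between 50 and 75%, and 200 (0.0967%) under 50%. Level went down slightly with the distance to the nearest listed CpG, from 95.6% ± 0.0609 at 2 to 9 bp through 95.1% ± 0.0461 at 10 to 29 bp to 94.2% ± 0.0752 at 30 to 99 bp (SD, n = 6). It was 94.5% ± 0.0824 at 100 bp or more. The strands did not differ beyond their spread: at 37834 CpGs with at least 10 reads on each strand in every CSR library, the forward strand held 94.9% ± 0.0422 and the reverse strand 94.9% ± 0.0805, and the difference was 0.0487 ± 0.0977 points. At 132 of these CpGs the strands differed by over 20 points in their CSR mean.

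The 200 CpGs under 50% lay in 197 tiles and were of more than 1 kind. Of them, 58 were under 50% in each CSR library and 35 in all 12 libraries, 62 reached 90% in at least 1 CSR library, and 32 were genotype-like. The lowest was on chromosome 6 from 99320612 to 99320613, at 0% in every library with 13 to 121 reads each. The 9 other measured CpGs of its tile held 96.3% in CSR libraries, and none of them was under 95.1%. On chromosome 3 from 128692441 to 128692442, all CSR libraries were at 0%, as were the control libraries except for 3.57% in library 4. The 10 other CpGs of that tile held 96.1%. On chromosome 17 from 12461737 to 12461738, the CSR libraries were at 0% and control libraries 2 and 5 at 11.1% and 6.67%, while the 9 other CpGs held 97.7%. The CSR reads of the CpG on chromosome 6 were 7 forward and 409 reverse, and on chromosome 17 they were 0 and 181. On chromosome 3 they were 103 and 222, so only there did both strands hold many reads. These are isolated unmethylated calls inside otherwise highly methylated tiles, and whether the rats carry the CpG of the reference genome there was not tested.

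The spread between CSR libraries was larger than binomial sampling gives when each call at a CpG is taken as independent. The median SD per tile was 2.63 points, and that from binomial sampling was 1.54. With more reads both fell, from 3.47 against 2.27 points at a median of 89.2 reads to 1.83 against 1.01 at 427 reads, and the ratio rose from 1.52 to 1.82. Of the highly methylated tiles, 397 (0.943%) had an SD over 10 points. The other CpG-poor tiles had a median SD of 5.94 points, where binomial sampling gives 2.71, and 6279 of them (18.5%) had an SD over 10 points. A proportion near 100% leaves less room to vary, which the binomial values reflect. A read that covers several CpGs of a tile counts at each, though its calls are not independent. Without molecular identifiers, PCR copies in RRBS are counted as reads too. The binomial value can therefore be too small even for counting error, and the part of this in the excess was not tested.

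**Figure D4:**
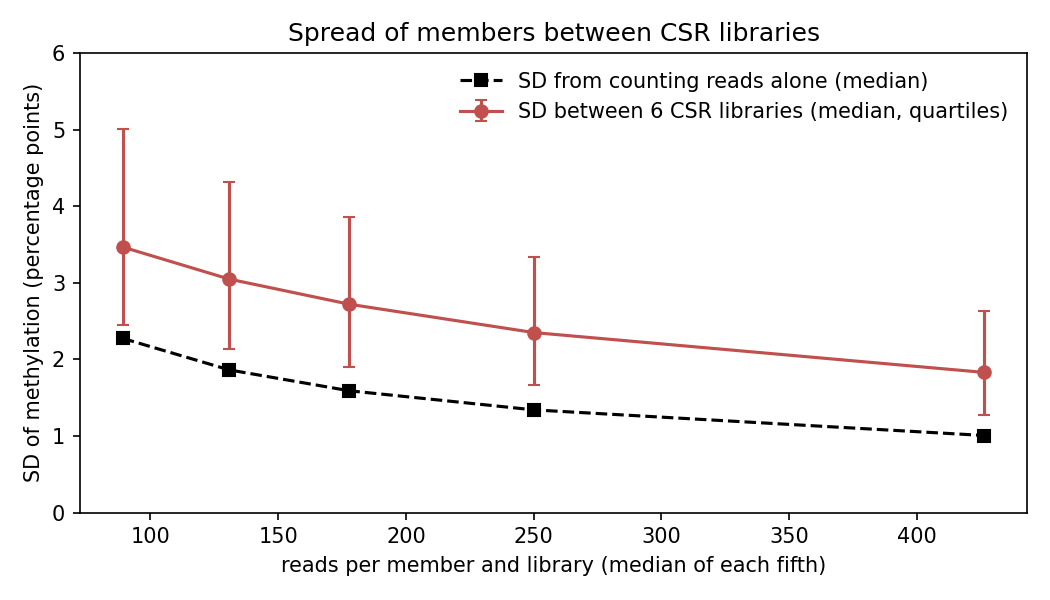
SD of methylation between the 6 CSR libraries (y axis, percentage points) of highly methylated tiles in 5 classes of reads (x axis, median reads per tile and library). Red points are medians with quartiles, and black squares the binomial SD with calls at each CpG taken as independent. The red medians fall from 3.47 to 1.83 and stay above the black ones in each class.

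Between the groups the tiles, as chosen by the 6 control libraries, differed by less than the spread of these libraries. The mean was 94.93% ± 0.277 in control (SD, n = 6), with a lowest library of 94.51%, a median of 94.99% and a highest of 95.23%, and the CSR mean exceeded it by 0.0230 points. The CSR libraries all fell within the range of the control libraries. The controls chose the tiles, so this difference is a description and was not tested. With tiles chosen by all 12 libraries it was 0.305 points (control SD 0.288), and with tiles chosen by the CSR libraries 0.579 points (control SD 0.306). Under these choices it exceeded the control SD. The CSR levels took part in both choices, which favours tiles high in CSR, so these differences are a description as well. Of the highly methylated tiles, 97.4% and 94.8% were also in those sets. Control libraries 5 and 3 were the lowest, at 94.5% and 94.7%, and also those with the fewest of their reads in these tiles. Without them the control mean of the same 42099 tiles was 95.09% ± 0.143 (n = 4), and the difference turned to -0.136 points, an alternative chosen after seeing the data. With the tiles also chosen again by the 4 other control libraries (42864 tiles), it was -0.253 points (control SD 0.158), and the share of tiles at 90% or more in CSR was 93.5%. The part of coverage in their level was not tested.

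**Figure D5:**
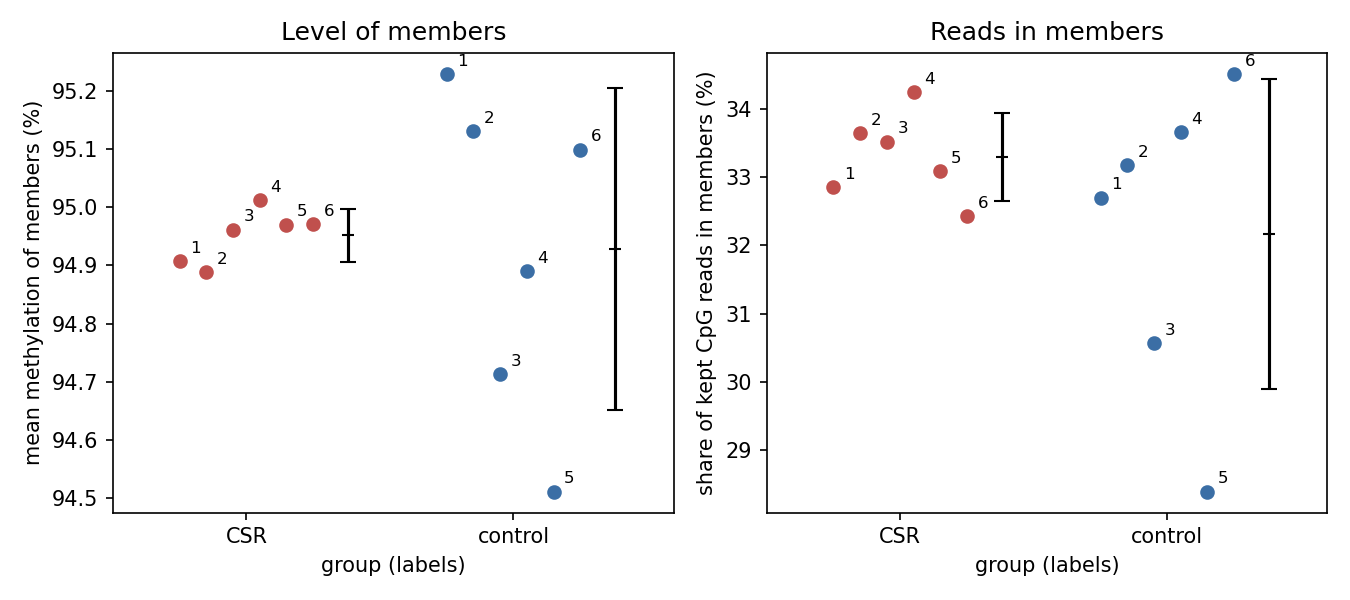
Left, mean methylation of the 42099 highly methylated tiles per library (y axis, %, not from 0); right, percent of kept CpG reads that fall in them. Points are libraries with their replicate number and bars are mean ± SD of each group; control libraries 3 and 5 are lowest in both panels.

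A quasi-binomial model fitted to all 93364 tiles called none (0% of tiles), and so none of the highly methylated ones, where a call needs 5 points or more of difference and an adjusted p under 0.05. By unadjusted p under 0.05, 1103 highly methylated tiles (2.62%) were higher and 864 (2.05%) lower in CSR, against 3.42% and 2.77% of all tiles. Neither share exceeded that of all tiles, and since the control values chose the tiles, nothing is read from the balance between them. Without control libraries 3 and 5, 953 of the same tiles (2.26%) were higher and 974 (2.31%) lower, against 2.66% and 3.60% of all tiles. With CSR libraries 2 and 3 summed, 1050 (2.49%) were higher and 846 (2.01%) lower, against 3.34% and 2.67% of all tiles, and none was called. In limma on log ratios, none was called, and 2039 (4.84%) had an unadjusted p under 0.05, against 5.16% of all tiles. Of the highly methylated tiles 53.0% had a positive difference, as had 53.0% of all tiles, with a median of 0.119 points against 0.141. Differences of 5 points or more were upward at 237 tiles (0.563%) and downward at 747 (1.77%), against 5019 (5.38%) and 5414 (5.80%) of all tiles. Differences of 10 points or more were upward at 0 and downward at 71, against 708 and 1126 of all tiles. A tile at 90% or more cannot rise by more than 10 points, which leaves less room for rises than for falls. Nothing is read from this balance.

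The tile with the smallest adjusted p of all 93364 was a highly methylated one, on chromosome 1 from 35466001 to 35467000, named after its values were seen. Its CSR libraries 1 to 6 read 81.6, 80.2, 79.97, 90.4, 76.7 and 75.2%, and its control libraries 95.7, 95.1, 93.2, 95.3, 94.0 and 95.6%, at 190 to 914 reads. The groups did not overlap, and CSR library 4 lay closest to the controls. The group means were 80.7% ± 5.32 and 94.8% ± 1.01 (adjusted p = 0.184 in the quasi-binomial model, not called). It was called without CSR library 4 (adjusted p = 0.000226), and in the 19 other alternatives that kept the tile its adjusted p ranged from 0.0712 to 0.958. The difference sat in 1 of its 4 measured CpGs. That CpG, from 35466322 to 35466323, is genotype-like, with 57.5, 53.4, 51.3, 90.5, 49.6 and 46.8% in CSR libraries 1 to 6 and 94.1 to 97.2% in control. The 3 other CpGs of the tile differed by 0.0938 points between the groups, and without genotype-like CpGs the tile gave the adjusted p of 0.958.

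The 3 largest falls, which the choice of the tiles shapes, included the 2 tiles with the largest SD between CSR libraries. On chromosome 2 from 252220001 to 252221000, the CSR libraries read 88.9, 67.5, 61.9, 100, 89.7 and 31.7%, and the control libraries 90.4% at the lowest, 95.4% at the median and 98.3% at the highest. CSR library 6 was far below all others and CSR library 4 above them. At 2 of its 3 CpGs, from 252220884 and from 252220996, CSR library 6 was at 0% and CSR library 4 at 100%, and the CpG between them, from 252220938, stayed between 84.6 and 100% in CSR; reads per CpG started at 13. The CpG from 252220996 is genotype-like. On chromosome 12 from 28621001 to 28622000, the CSR libraries read 91.3, 83.0, 78.0, 49.6, 86.9 and 28.3%, and the control libraries between 78.3 and 96.3%. All 3 CpGs of this tile were low in CSR library 6, at 30.4, 30.4 and 21.7%, and none was genotype-like. On chromosome 2 from 243392001 to 243393000, the groups had 70.0% ± 15.1 and 90.1% ± 12.8, and the CpG from 243392475 held most of it, at 35.4% against 77.0%. The low values of this CpG were spread over several CSR libraries, control library 2 (10.5%) and control library 1 (60%). Over the whole tile control library 2 read 67.2%. The third largest SD was on chromosome 5 from 90814001 to 90815000, where CSR libraries 1 and 4 read 58.9 and 48.3% and the other CSR libraries 96.9 to 98.7%. In each of these 4 tiles the CSR and control libraries overlapped.

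The largest rises were smaller, and the rule caps them at 10 points. The tile on chromosome 11 from 82303001 to 82304000 had 98.4% ± 0.816 in CSR and 90.1% ± 11.1 in control, where libraries 5 and 6 read 78.2 and 73.8% and the others 94.3 to 99.2%. Its CpG from 82303806 held 99.3% in CSR and 82.4% in control, and the 5 other CpGs differed by 2.66 points. That CpG read 52.4 and 51.6% in control libraries 5 and 6, and 94.7 to 100% in the other control libraries. With 1 level held by more than 9 libraries, it could not count as genotype-like. The tile on chromosome 13 from 67806001 to 67807000 had 98.6% ± 1.23 in CSR against 90.8% ± 9.09. The CpG from 67806124 accounted for most of it, at 100% against 79.5%, and was lowest in control libraries 4 and 5, at 57.4 and 41.7%. The 2 others differed by 1.14 points. For the tile on chromosome 4 from 118398001 to 118399000 the means were 98.4% ± 2.11 in CSR against 90.5% ± 5.68, and no single CpG carried the difference: leaving out each of the 4 in turn left 6.34 to 8.72 points. Of all genotype-like CpGs, 178 of 968 lay in 175 of the highly methylated tiles, which hold 32.1% of all CpGs with enough reads. The choice by control level shapes this count, and nothing is read from it.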

How the data were processed

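Per the submitters' processing notes, Trim Galore, Bismark, SAMtools and the rn6 build were used; their versions and settings were not given in the sources used here. Per the file headers, the deposited tables give a read count (coverage) for each CpG cytosine and the percent of C and of T among those reads; the lowest listed count was 5. Methylated reads were taken as coverage times percent, rounded. Strands were summed, and 3 positions listed in duplicate were summed. Methylated against unmethylated reads of each 1000-bp tile were fitted by quasi-binomial regression in R 4.3.3, with the dispersion moderated by squeezeVar of limma 3.58.1, with Benjamini-Hochberg adjustment over all 93364 tiles. The model was checked on simulated data. Genotype-like CpGs lay within 15 points of 0, 50 or 100% in all 12 libraries, with no level held by more than 9. Tiles were named by rule, 3 each: nearest the threshold on either side, most CpGs, most reads, longest runs, largest difference in each direction and largest SD between CSR libraries, plus any called tile; so were the 3 CpGs lowest in CSR. CpGs inside named tiles were looked at after their values were seen. The tiles, lists and rules were chosen with earlier results of these data known. Alternatives varied the read minimum, the CpG minimum, the thresholds, the choosing libraries, weights, the model and the libraries included. RNA tables were not used here.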

Additional observations from a re-analysis of the deposited data

Results flagged for a closer look

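A library standing far from the 5 others of its group was found in 2 of 54 comparisons, where chance alone would give about 2.7 (1 in 20). Both concern depth. The highest CSR total was 68940379 reads at CpG cytosines, in library 6, and the next highest was 54712419. The lowest control total was 49647718 reads, in library 2, and the next lowest was 59342162. In the highly methylated tiles these libraries held 94.97% and 95.13%, inside the range of their groups.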

How the results depend on the processing

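The number of highly methylated tiles was 70536 at a read minimum of 5, 18006 at a minimum of 20, 18935 with at least 5 CpGs per tile, 22609 at a threshold of 95% and 24827 at a density under 10; leaving out 1 library it ranged from 41817 to 42513. Their CSR mean was 94.9% and 95.03% at read minimums of 5 and 20, 93.9% and 96.4% at thresholds of 85 and 95%, 95.01% at a density under 10, 95.07% chosen by all 12 and 95.07% chosen by CSR libraries, 94.9% with all listed CpGs pooled, 94.8% without control libraries 3 and 5, and 94.89 to 94.96% leaving out 1 library. CSR minus control was -0.299 points at a threshold of 95%, 0.305 chosen by all 12 libraries, 0.579 chosen by CSR libraries, -0.253 without control libraries 3 and 5 with the tiles chosen again, -0.136 on the same tiles, and -0.101 (without control library 5) to 0.0357 leaving out 1 library. The percent of tiles also at 90% in CSR was 94.2 and 95.3 at read minimums of 5 and 20, 95.3 with at least 5 CpGs, 93.5 without control libraries 3 and 5, and 94.2 to 94.8 leaving out 1 library.

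The share at 90% or more fell between 3 to 4 and 15 to 19 CpGs by 17.8 and 14.03 points at read minimums of 5 and 20, and by 16.5 to 16.8 leaving out 1 library; at least 5 CpGs per tile leaves no tile in the first class and gave no value. The gap between neighbours at 1 kb was 34.6 and 37.7 points at read minimums of 5 and 20, 43.0 with at least 5 CpGs, 37.3 without control libraries 3 and 5 and 36.4 to 37.0 leaving out 1 library. Tiles with an unadjusted p under 0.05 numbered 1870 higher (2.65%, against 3.52% of all tiles) and 1467 lower (2.08%, against 2.69%) at a minimum of 5, 505 (2.80%, against 3.43%) and 334 (1.85%, against 2.72%) at 20, and 470 (2.48%, against 3.29%) and 349 (1.84%, against 2.80%) with at least 5 CpGs, where the number of tiles tested changes too. They numbered 1015 to 1158 and 802 to 941 leaving out 1 library. Without control library 5 they were 1015 higher (2.39%, against 2.98% of all tiles) and 941 lower (2.21%, against 3.03%). Without control library 1 they were 1158 higher (2.77%, against 3.59%) and 802 lower (1.92%, against 2.80%). With any 1 library left out, both shares lay under those of all tiles. Called tiles numbered 0 to 3 over all tiles and 0 to 1 among the highly methylated ones leaving out 1 library: 3 without control library 2 and 1 without CSR library 4. With the replicate block, 3 tiles were called and 0 of them highly methylated; the same numbers did not pair libraries, with correlations of deviations between -0.00878 and 0.0161, so the block has no basis in the design. Strand differences moved by less than their SD in all 19 alternatives. Coverage limits single tiles: the median was 187 reads, and the median binomial SD, with calls at each CpG taken as independent, was 1.54 points.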
